A study of Homo sapiens with 19 samples.

Results

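The 3′ end of 28S ribosomal RNA, which holds the peptidyl transferase centre, was examined for ribose methylation in the leukaemia line Kasumi-1, which is an established line from acute myeloid leukaemia. All rows of 28S rRNA above position 4100 were taken, which gave 921 of the 7000 rRNA positions with fragment end counts. The same rule took 19 of the 120 sites scored for methylation, so that 52 other scored sites of 28S lay outside. Methylation had been measured by RiboMethSeq, in which RNA is broken by alkali and a methylated ribose protects the bond next to it. The measurement is score C, which is near 1 where few fragment ends fall next to a site compared with the positions around it and lower where more molecules are unmethylated. There were 19 libraries in 11 groups. Of these, 7 groups had 2 libraries each and were induced with 100 ng/ml doxycycline. Control knockdown (KD) was measured with no re-expression and with an empty vector. FBL KD was measured in the same 2 states and also with re-expressed wild-type FBL, the mutant FBLTri or the mutant FBLQua. The other 5 libraries concerned SNORD127 and had no second replicate apart from the pair of knockout clones, C1 and C34. They further held a control clone and, on clone C1, an empty vector or a vector with SNORD127. For these 5, no doxycycline is given in the labels. All were grown with 20% serum. The labels name neither the amino acids changed in the mutants nor the promoters of the vectors.

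Peptide bonds are made in the large subunit by RNA, in a pocket lined by the peptidyl transferase ring and by the A and P loops, which hold the ends of the incoming and the growing-chain tRNA. Most ribose methyl groups of human rRNA are added by fibrillarin (FBL), the methyltransferase of box C/D small nucleolar ribonucleoproteins, at nucleotides selected by a guide RNA (SNORD) that pairs with the rRNA. Many guides are cut from introns of host genes for ribosomal proteins or of non-coding small nucleolar RNA host genes. A few rRNA methyl groups are instead added by stand-alone enzymes, among them FTSJ3, to which 28S-4469 in the A loop is assigned. The rRNA and snoRNA sequences were not used here, and sites are named by their position in the older 28S numbering, to which genome coordinates do not apply.

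The deposited annotation gave a numbered box C/D guide for all sites but 28S-4469 and 28S-4937. From 28S-4166 to 28S-4362 these were SNORD31 for 28S-4166 (P loop), SNORD58A, SNORD58B and SNORD58C for both 28S-4197 and 28S-4198, SNORD41 for 28S-4276, SNORD60 for 28S-4340, and SNORD1A, SNORD1B and SNORD1C for 28S-4362. Between 28S-4426 and 28S-4506 they were SNORD49A and SNORD49B for 28S-4426, SNORD69 for 28S-4464, SNORD62A and SNORD62B for 28S-4468 (A loop), SNORD29 for 28S-4493, and SNORD35A and SNORD35B for 28S-4506. No numbered guide was given for 28S-4469. Above it in position, SNORD63 was assigned to 28S-4541, SNORD119 to 28S-4560, SNORD91A and SNORD91B to 28S-4588, SNORD72 to 28S-4590, SNORD78 to 28S-4593, and SNORD121A and SNORD121B to 28S-4607. 28S-4937 was listed with SNORA43, SNORA17 and SNORA50B, which belong to the H/ACA class that guides pseudouridylation. The host genes differed: RPL17 holds the SNORD58 guides, RPL37 holds SNORD72, GAS5 holds SNORD78, and SNHG1 holds both SNORD31 and SNORD29.

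Libraries held 5533150 to 18835537 end counts, of which 3.36 to 17.7% fell above position 4100. The 4 control KD and FBL KD libraries without re-expression were the shallowest: the median over sites of the mean flanking count was 100.0 to 864.2 there and 1313 to 2416 in the other 15. The median half-width of a site's 95% Poisson counting interval was accordingly 0.00916 to 0.0645 in these 4 and 0.00878 to 0.0203 in the rest. These intervals cover counting error of the site's own end count only, as the reads carry no molecular identifiers. Within the stretch the ends were uneven: those above 4400 and up to 4500 took a median of 45.1% of them, and positions 4418, 4416, 4415, 4417 and 4419 alone took on average 6.73, 4.03, 3.32, 3.16 and 2.10%. Replicate 2 of control KD with empty vector differed from the rest in having 20.8% of all its counts at 1 position of 28S outside the stretch. The libraries titled FBLTri and FBLQua carry other mutant names in their column names, and the control clone's column is named like a knockout, so these groups rest on the sample titles. The column names also differ between backgrounds (shFBL1 and shFBL2 without re-expression, shFBL4 with a vector), so depth, background and whatever these names mark cannot be told apart. Whether replicates came from separate cultures is not stated, and the spread behind the p-values may be technical. Transcripts of FBL and SNORD127 are not counted in rRNA, so neither target could be checked.

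Most of the 19 sites were close to fully protected without FBL KD. In all 4 control KD libraries 13 sites scored at least 0.9. The highest means over these 4 libraries were 0.996 ± 0.0041 at 28S-4197, 0.9953 ± 0.0047 at 28S-4468, 0.994 ± 0.0073 at 28S-4464 and 0.991 ± 0.0032 at 28S-4198 (SD, n = 4). Neighbours in this order differed by less than their spread down to 28S-4541 at 0.967 ± 0.028 and on to 28S-4590 at 0.903 ± 0.034 (SD, n = 4). The 6 sites that missed 0.9 in some control KD library were 28S-4362, 28S-4607, 28S-4590, 28S-4588, 28S-4937 and 28S-4560. The last 3 were below 0.9 in every control KD library, at means of 0.732 ± 0.076, 0.674 ± 0.11 and 0.668 ± 0.087 (SD, n = 4), which differed among themselves by less than their spread. In all 19 libraries, 6 sites stayed at 0.9 or above: 28S-4166, 28S-4340, 28S-4468, 28S-4469, 28S-4493 and 28S-4506.

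**Figure D1:**
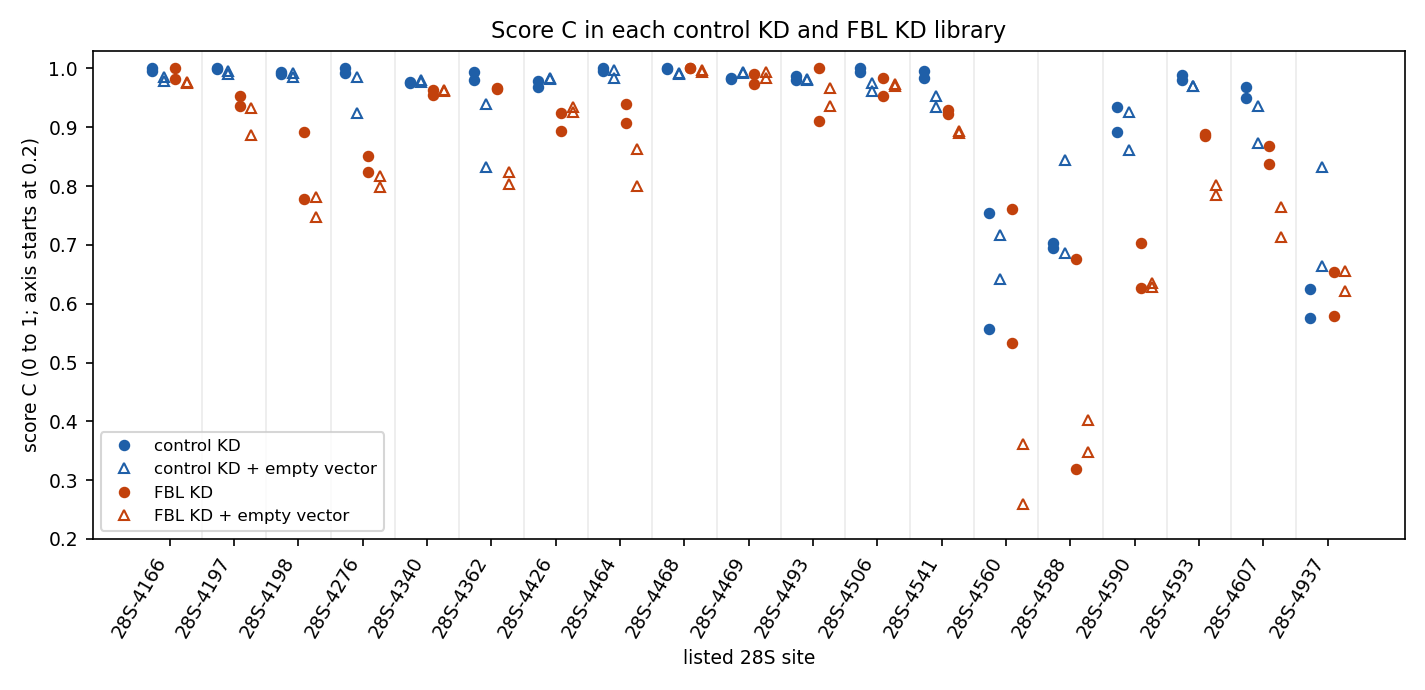
Score C (vertical axis, 0 to 1, starting at 0.2) of the 19 listed 28S sites in order of position, 1 point per library, for control KD (blue) and FBL KD (orange) without re-expression (filled circles) and with empty vector (open triangles). Points of all groups lie near 1 at 28S-4468 and 28S-4469, and the widest gaps between blue and orange are at 28S-4560 and 28S-4588 among the libraries with empty vector.

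FBL KD lowered score C at 12 of the 19 sites and raised it at 0, over both backgrounds (limma across all 120 sites, adjusted p under 0.05). Over all 120 sites the share called lower was 71.7% and the share called higher 1.67%, so the count here was near that background. The median change of the 19 was -0.059, against -0.085 over all 120 sites and -0.164 over the other 52 sites of 28S, of which 47 were called lower. An unadjusted p under 0.05 was reached by the 12 called sites and by no other of the 19. By position, 4 of the 6 sites from 28S-4166 to 28S-4362 fell, 2 of the 6 from 28S-4426 to 28S-4506, and 6 of the 7 from 28S-4541 to 28S-4937, with median changes of -0.058, -0.020 and -0.137. Library medians over the 120 sites shifted by -0.118 with FBL KD, and with library medians made equal 5 sites were called lower (28S-4198, 28S-4276, 28S-4588, 28S-4590 and 28S-4593) and 10 higher. Relative to the median site, the smaller changes thus had the other sign. This setting puts sites on both sides of the median by its construction. Here and below its counts are given without the share over all 120 sites, so they mark no trait of this stretch. In bulk RNA, fewer methyl groups in every cell and unmethylated rRNA in some cells cannot be told apart.

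The neighbouring SNORD58 targets 28S-4197 and 28S-4198 both fell, the second further. At 28S-4198, score C was 0.990 and 0.993 in control KD, 0.778 and 0.892 in FBL KD, 0.986 and 0.992 in control KD with empty vector, and 0.781 and 0.747 in FBL KD with empty vector. Every FBL KD library lay below every control KD library. The change was -0.191 (SE 0.021, 95% interval -0.239 to -0.143, limma adjusted p = 3.27e-05). Seen as fragment ends at the site relative to its flanks, the mean rose from 0.802 to 16.5% without re-expression and from 1.08 to 23.6% with empty vector. 28S-4197 scored 0.999 and 1 in control KD, 0.953 and 0.936 in FBL KD, 0.991 and 0.9952 in control KD with empty vector, and 0.888 and 0.933 in FBL KD with empty vector. Its groups did not overlap either, with a change of -0.069 (SE 0.0088, limma adjusted p = 8.18e-05).

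At 28S-4276, the SNORD41 target, score C was 0.993 and 1 in control KD, 0.852 and 0.824 in FBL KD, 0.985 and 0.925 with empty vector in control KD, and 0.798 and 0.817 with empty vector in FBL KD. The low control value belongs to replicate 2, whose counts piled up at 1 position of 28S, and it still lay above all FBL KD values. The change was -0.153 (SE 0.014, limma adjusted p = 1.07e-05). 28S-4340, guided by SNORD60, changed by only -0.017 (SE 0.0024, limma adjusted p = 0.00015), yet its 4 control values of 0.975 to 0.980 all lay above its 4 FBL KD values of 0.954 to 0.963. 28S-4166 in the P loop was not called, with a change of -0.0063 (95% interval -0.015 to 0.0027). Without replicate 2 of FBL KD its change was -0.0106 and was called (limma adjusted p = 0.0122).

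28S-4362, guided by the SNORD1 family, split the libraries by background. It scored 0.981 and 0.994 in control KD and 0.965 and 0.967 in FBL KD, against 0.786 to 0.939 in the other 15 libraries. The 4 libraries without re-expression thus lay above all others, including the clones that carry no vector at 0.845 to 0.862. They were also the shallowest libraries, and the part of depth in this was not tested. The knockdown change of -0.047 (limma adjusted p = 0.149) was not called. It was called lower on the logit scale, by edgeR on end counts, and without replicate 1 of control KD with empty vector (-0.074, limma adjusted p = 0.0223), and higher with library medians made equal. With empty vector, leaving out that replicate moved the change from -0.072, which was not called, to -0.126 (limma adjusted p = 0.0162).

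In the A loop, the adjacent 28S-4468 and 28S-4469 stayed high in every library. 28S-4469, the FTSJ3 site, scored 0.984 and 0.982 in control KD, 0.973 and 0.990 in FBL KD, 0.992 and 0.993 in control KD with empty vector, and 0.983 and 0.993 in FBL KD with empty vector. The groups overlapped in both backgrounds, and the change of -0.0031 over both was not called. Its score lay between 0.990 and 0.9946 in the libraries with re-expressed wild-type or mutant FBL. With replicate 2 of FBL KD, whose 1 end count against a flanking mean of 100.0 allows 0.944 to 1.00, left out, the change was -0.0074 and was called (limma adjusted p = 0.0388). 28S-4468, which has the SNORD62 guides, had 0 end counts in the pair of FBL KD libraries lacking re-expression, with lower 95% limits of 0.983 and 0.958. With empty vector it scored 0.991 and 0.992 in control KD and 0.994 and 0.998 in FBL KD. Its change was 0.0026 and was not called.

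28S-4464, the SNORD69 target a few nucleotides before these, fell. It scored 0.9954 and 1 in control KD, 0.940 and 0.907 in FBL KD, 0.997 and 0.983 in control KD with empty vector, and 0.801 and 0.863 in FBL KD with empty vector. All FBL KD values lay below all control values, with the lowest in the libraries with empty vector. The change over both backgrounds was -0.116 (SE 0.021, limma adjusted p = 0.000781). At 28S-4426, guided by SNORD49A and SNORD49B, the control values of 0.969 to 0.984 lay above the FBL KD values of 0.894 to 0.935, and the change was -0.059 (SE 0.0071, limma adjusted p = 6.27e-05). Neither 28S-4493 (SNORD29) nor 28S-4506 (SNORD35A and SNORD35B) was called over both backgrounds, with changes of -0.029 and -0.012. Both were called without replicate 1 of FBL KD, at -0.0509 (limma adjusted p = 0.00125) and -0.0196 (limma adjusted p = 0.00406). In that replicate 28S-4493 scored 1, against 0.910 in replicate 2.

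Toward the 3′ end, the neighbouring sites 28S-4588 and 28S-4590 had the largest falls of the 19 sites over both backgrounds, followed by 28S-4198 and then by 28S-4560. At 28S-4590, guided by SNORD72, score C was 0.934 and 0.891 in control KD, 0.703 and 0.627 in FBL KD, 0.861 and 0.926 in control KD with empty vector, and 0.635 and 0.628 in FBL KD with empty vector. The 4 FBL KD values lay well below the 4 control values, and the change was -0.255 (SE 0.023, limma adjusted p = 9.22e-06). At 28S-4588, guided by SNORD91A and SNORD91B, the corresponding values were 0.703 and 0.694, 0.676 and 0.319, 0.685 and 0.845, and 0.349 and 0.401. Here replicate 1 of FBL KD lay just below the lowest control library and replicate 2 far below it, and the change was -0.296 (SE 0.070, limma adjusted p = 0.00424). At 28S-4593, guided by SNORD78, the values were 0.989 and 0.980 in control KD, 0.884 and 0.889 in FBL KD, 0.969 and 0.971 in control KD with empty vector, and 0.785 and 0.801 in FBL KD with empty vector. Replicates differed little there beside the change of -0.137 (SE 0.0060, limma adjusted p = 6.18e-08).

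28S-4607 (SNORD121A and SNORD121B) scored 0.950 and 0.969 in control KD, 0.837 and 0.868 in FBL KD, 0.874 and 0.936 in control KD with empty vector, and 0.714 and 0.765 in FBL KD with empty vector. It fell by 0.136 (SE 0.020, limma adjusted p = 0.000203), and its groups touched without overlapping. 28S-4541 (SNORD63) fell by 0.058 (SE 0.0073, limma adjusted p = 7.79e-05), from 0.934 to 0.996 in the control libraries to 0.890 to 0.929 in the FBL KD libraries. 28S-4560 (SNORD119) scored 0.755 and 0.558 in control KD and 0.533 and 0.760 in FBL KD, against 0.716 and 0.643 in control KD with empty vector and 0.260 and 0.361 in FBL KD with empty vector. Groups overlapped without re-expression, where replicate 2 of FBL KD had 8 end counts and a 95% counting interval of 0.528 to 0.897, and were apart with empty vector. The change of -0.189 (SE 0.060, limma adjusted p = 0.019) lost its call without replicate 1 of control KD (-0.14), FBL KD (-0.132), control KD with empty vector (-0.171) or FBL KD with empty vector (-0.164). It was also lost when the compared groups were fitted alone and with library medians made equal. 28S-4937, the site listed with H/ACA RNAs, was not called at -0.046, but was at -0.089 (limma adjusted p = 0.0125) without replicate 1 of control KD with empty vector. In all, the 4 FBL KD libraries lay below the 4 control KD libraries at 11 of the 19 sites, against 59.2% of all 120 sites.

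The knockdown was also compared within each background. Without re-expression 10 of the 19 sites were called lower and 0 higher, against 59.2% lower over all 120 sites. With empty vector 12 were called lower and 0 higher, against 67.5% lower over all 120 sites. With library medians made equal these splits became 2 lower and 9 higher, and 5 lower and 9 higher. The sites 28S-4464, 28S-4560 and 28S-4588 were called with empty vector and missed the threshold without re-expression, with changes of -0.158, -0.369 and -0.390 there and -0.074, -0.0098 and -0.201 without re-expression. At 28S-4464 the change without re-expression had limma adjusted p = 0.0562 and was called in 5 of 13 alternatives, among them the logit scale, edgeR and the compared groups alone. Its difference between backgrounds of -0.084 was not called (limma adjusted p = 0.166). The reverse pattern of calls held for 28S-4506, at -0.028 without re-expression and 0.0039 with empty vector. Its call was lost without replicate 1 (-0.0316) or 2 (-0.0247) of control KD or replicate 2 of FBL KD (-0.013), and by edgeR. Without re-expression, fitting the compared groups alone ended the calls of 28S-4198, 28S-4340 and 28S-4506. Without re-expression, 28S-4607 lost its call without replicate 2 of control KD (-0.0979) or replicate 1 of FBL KD (-0.0915), and 28S-4588 was called at -0.38 without replicate 1 of FBL KD. With empty vector, 28S-4588 lost its call without replicate 2 of the control (-0.31, limma adjusted p = 0.056).

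**Figure D2:**
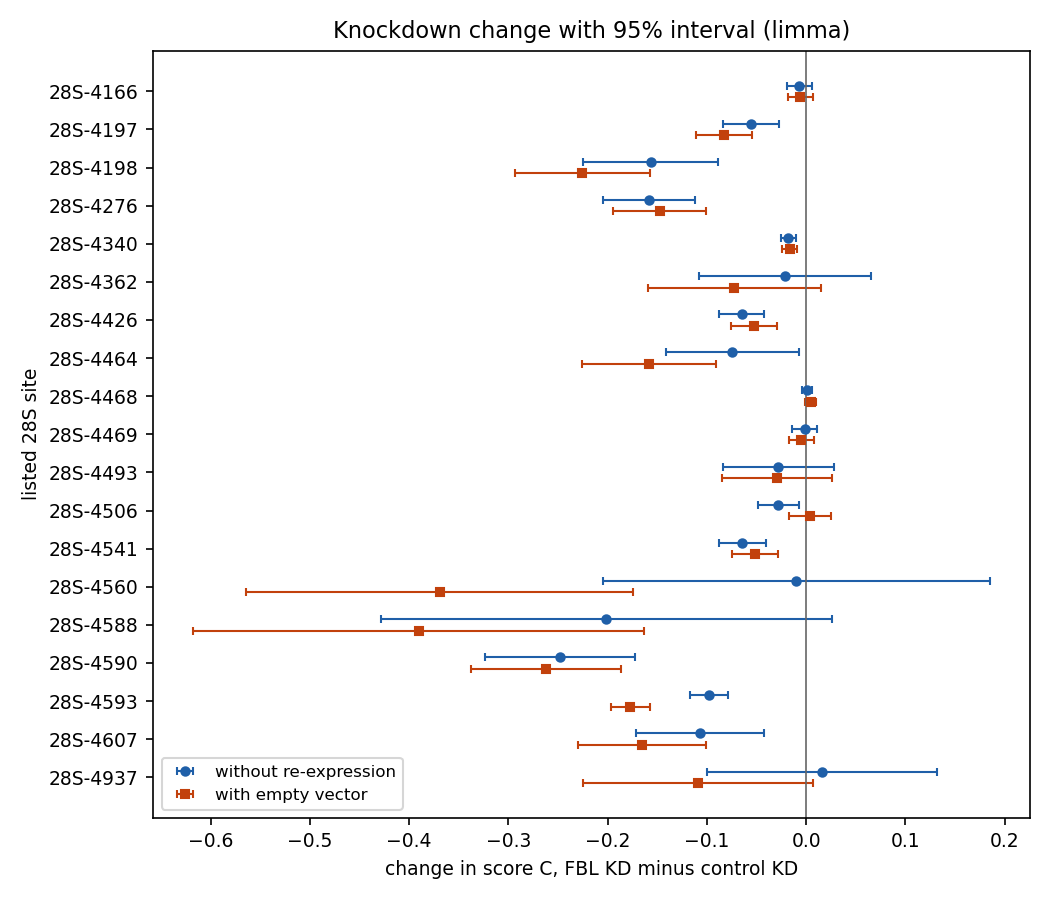
Change in score C (horizontal axis, FBL KD minus control KD) with its 95% interval from limma at each of the 19 sites, without re-expression (blue circles) and with empty vector (orange squares). The intervals are widest at 28S-4560 and 28S-4588, and those of 28S-4593 do not overlap between the backgrounds.

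Tested directly, the knockdown effect differed between backgrounds at 1 of the 19 sites, against 25% of all 120 sites called more negative with empty vector and 5% less negative. At 28S-4593 the effect was -0.098 without re-expression and -0.177 with empty vector, and the difference of -0.079 (SE 0.012) had limma adjusted p = 0.00221, but it was not called on the logit scale or with library medians made equal, and by edgeR it had the opposite sign and was not called. At 28S-4560 the difference of -0.359 missed the threshold (95% interval -0.635 to -0.083, limma adjusted p = 0.0527), and it passed without replicate 1 of control KD or of FBL KD.

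Re-expression of wild-type FBL raised score C at 10 of the 19 sites compared with the empty vector and lowered it at 0, against 57.5% of all 120 sites called higher. The median change was 0.037, against 0.053 over all 120 sites. At 28S-4198, the libraries with wild-type FBL scored 0.936 and 0.927, above both with empty vector (0.781 and 0.747) and below both controls (0.986 and 0.992). The rise was 0.168 (SE 0.030, limma adjusted p = 0.00123). At 28S-4276 wild-type FBL gave 0.948 and 0.939, between the controls of 0.985 and 0.925, and a rise of 0.136 (SE 0.020, limma adjusted p = 0.000403). The lower of these controls is replicate 2, whose counts piled up at 1 position of 28S. At 28S-4593 it gave 0.899 and 0.911, between the empty vector and the controls, and a rise of 0.112 (SE 0.0084, limma adjusted p = 7.53e-06).

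The other rises were 0.128 at 28S-4590, 0.109 at 28S-4464, 0.090 at 28S-4607, 0.059 at 28S-4197, 0.037 at 28S-4426, 0.030 at 28S-4541 and 0.010 at 28S-4340. Of the 10 calls 5 were lost without some library. At 28S-4464 the rise was 0.078 without replicate 1 of the empty vector and 0.091 without replicate 1 of wild-type FBL, and at 28S-4607 it was 0.0648 and 0.0609. That of 28S-4426 was 0.0323 without replicate 1 of the empty vector and 0.0367 without replicate 2 of wild-type FBL. The rise at 28S-4541 was 0.0283 and 0.0322 without replicate 1 and 2 of the empty vector and 0.0234 without replicate 2 of wild-type FBL, and that at 28S-4340 was lost without any of the 4 libraries (0.0092 to 0.0107). On the logit scale and by edgeR, 28S-4541, 28S-4590 and 28S-4607 were not called. The median score of the libraries rose by 0.096, and with library medians made equal 0 sites were called higher and 9 lower.

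28S-4560 and 28S-4588 were not called with wild-type FBL. At 28S-4560 the values were 0.324 and 0.432, which overlapped those with empty vector, and the change of 0.067 had a 95% interval of -0.128 to 0.262. At 28S-4588 they were 0.443 and 0.472, above both with empty vector, and the change of 0.082 had one of -0.145 to 0.310.

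Compared with control KD with empty vector, 4 of the 19 sites remained lower with wild-type FBL and 0 were higher, against 29.2% of all 120 sites called lower. In this main fit all 4 lay at the 3′ end: 28S-4588 (-0.308, limma adjusted p = 0.0462), 28S-4560 (-0.302, limma adjusted p = 0.0274), 28S-4590 (-0.134, limma adjusted p = 0.0149) and 28S-4593 (-0.065, limma adjusted p = 0.000617). This comparison shares the wild-type libraries with the one before. The call of 28S-4593 held without each library in turn, and the other 3 did not. Leaving out replicate 2 of the control ended all 3, with -0.228 at 28S-4588, -0.102 at 28S-4590 and -0.338 at 28S-4560. Leaving out replicate 1 of wild-type FBL also did, with -0.294, -0.141 and -0.247. Without replicate 2 of wild-type FBL the calls of 28S-4588 (-0.322) and 28S-4590 (-0.127) were lost, and without replicate 1 of the control that of 28S-4560 (-0.265). Fitting the compared groups alone ended these 3 calls as well. With library medians made equal 1 site was called lower and 5 higher. On a logit scale 8 sites were called lower, and by edgeR on end counts 9. As only 7 of the 19 sites lie from 28S-4541 to 28S-4937, these calls were not all at the 3′ end. Without replicate 1 of the control, 28S-4607 (-0.107) and 28S-4937 (-0.215) were called lower too.

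**Figure D3:**
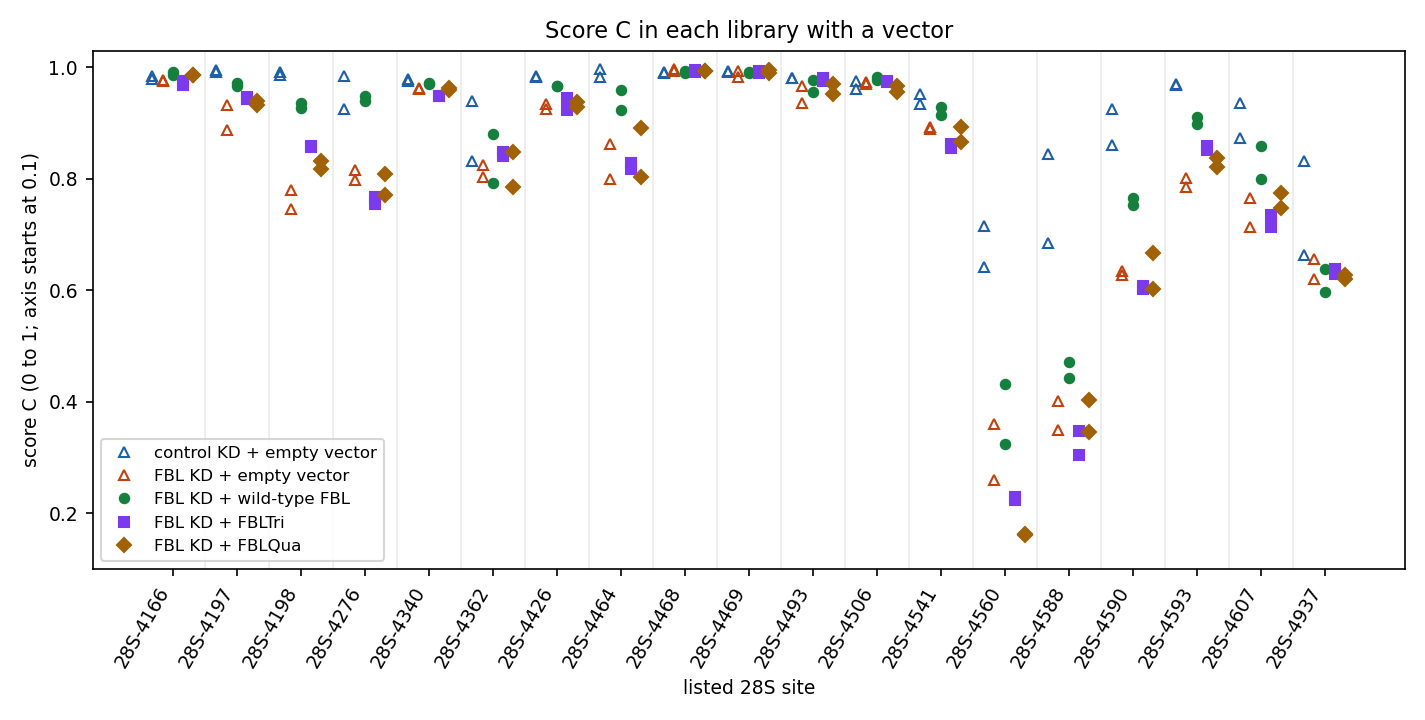
Score C (vertical axis, starting at 0.1) of the 19 sites in the 10 libraries of the 5 groups with a vector, 1 point per library. Wild-type FBL (green circles) lies between the control (blue triangles) and the empty vector (orange triangles) at 28S-4198 and 28S-4593, and FBLTri (squares) and FBLQua (diamonds) lie near the empty vector at most sites.

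The mutants raised few sites over the empty vector. With FBLTri 2 of the 19 sites were called higher and 2 lower, against 16.7% and 20% of all 120 sites. At 28S-4593 FBLTri gave 0.859 and 0.853, above both libraries with empty vector (0.785 and 0.801) and below both with wild-type FBL. The rise was 0.063 (SE 0.0084, limma adjusted p = 0.000447), but it was not called on the logit scale or by edgeR. At 28S-4198 FBLTri gave 0.858 and 0.859, a rise of 0.095 (SE 0.030, limma adjusted p = 0.0391). The 2 falls were -0.013 at 28S-4340 and -0.033 at 28S-4541. The calls of 28S-4198, 28S-4340 and 28S-4541 were each lost without any of the 4 libraries compared, at changes of 0.0778 to 0.112, -0.0133 to -0.0119 and -0.0363 to -0.0288. FBLTri and FBLQua are set here against the same empty-vector libraries.

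With FBLQua 1 of the 19 sites was called higher and 0 lower, against 7.5% and 11.7% of all 120 sites. This was 28S-4593 at 0.838 and 0.822, above both libraries with empty vector, with a rise of 0.037 (SE 0.0084, limma adjusted p = 0.0182). The call was lost without replicate 1 of the empty vector (0.0285) or replicate 1 of FBLQua (0.0288), on the logit scale and by edgeR. 28S-4560 scored 0.163 and 0.160 with FBLQua and 0.223 and 0.229 with FBLTri, the lowest values of the 19 sites in any library and below both libraries with empty vector. Neither change was called, at -0.149 (95% interval -0.344 to 0.046) and -0.084 (95% interval -0.279 to 0.111). At 28S-4197, which was not called for either mutant, leaving out replicate 2 of the empty vector gave called rises of 0.0575 with FBLTri and 0.0486 with FBLQua.

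Against wild-type FBL, 9 of the 19 sites were lower with FBLTri and 9 with FBLQua, and 0 were higher with either, against 62.5% and 59.2% of all 120 sites called lower. The sites 28S-4276, 28S-4340, 28S-4426, 28S-4464, 28S-4541, 28S-4590 and 28S-4593 were called in both, which share the wild-type libraries. At 28S-4276 FBLTri gave 0.755 and 0.767 and FBLQua 0.809 and 0.771, against 0.948 and 0.939 with wild-type FBL. These were differences of -0.183 (SE 0.020, limma adjusted p = 6.78e-05) and -0.154 (SE 0.020, limma adjusted p = 0.00021), and neither lost its call without any library. 28S-4166 (-0.017) and 28S-4607 (-0.106) were called with FBLTri, and 28S-4197 (-0.034) and 28S-4198 (-0.107) with FBLQua.

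Many of these calls were lost with 1 library left out, which leaves 1 library in its group. The change itself could move little: at 28S-4340 with FBLQua it was -0.0103 in full and -0.0092 to -0.0114 in these fits. With FBLTri 5 of the 9 held without each library in turn, and with FBLQua 2 of the 9, namely 28S-4276 and 28S-4593. Without replicate 1 of wild-type FBL, the FBLTri calls of 28S-4426 (-0.0328), 28S-4464 (-0.0995) and 28S-4607 (-0.0762) were lost, and without its replicate 2 those of 28S-4166 (-0.0137) and 28S-4426 (-0.0326). Leaving out replicate 1 of FBLTri ended the calls of 28S-4426 (-0.0221) and 28S-4607 (-0.0952), and leaving out its replicate 2 that of 28S-4166 (-0.0123). For FBLQua, leaving out replicate 1 of wild-type FBL ended the calls of 28S-4197, 28S-4198, 28S-4340, 28S-4426, 28S-4464 and 28S-4590, at -0.0366, -0.103, -0.0097, -0.0342, -0.0749 and -0.119. Leaving out its replicate 2 ended those of 28S-4197, 28S-4340 and 28S-4426, at -0.0306, -0.0108 and -0.034. Without replicate 1 of FBLQua the same 3 sites lost their calls, at -0.0294, -0.0092 and -0.0301. Without its replicate 2 the calls of 28S-4197 (-0.0378), 28S-4198 (-0.0999), 28S-4340 (-0.0114), 28S-4464 (-0.0494), 28S-4541 (-0.0283) and 28S-4590 (-0.0928) were lost. On the logit scale 28S-4541 and 28S-4590 lost their calls with both mutants. With library medians made equal, FBLTri had 1 lower site beside 11 higher ones, and FBLQua 1 beside 9.

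Between FBLTri and FBLQua 0 of the 19 sites were called by limma or by edgeR. Over all 120 sites 5% were called lower and 3.33% higher, and 3 of the 19 had an unadjusted p under 0.05. Changes ranged from -0.049 to 0.065.

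SNORD127, whose known target lies in 18S, was not assigned to any of these sites. Between the 3 libraries without SNORD127 and the 2 with it, 0 of the 19 sites were called by limma or by edgeR, 0 had an unadjusted p under 0.05, and the changes ran from -0.0054 to 0.033. Over all 120 sites 0.833% were called lower and 0% higher. Of the 5 libraries 3 came from clone C1, so they are not independent replicates. Each side also mixes libraries with and without a vector, whose clone means differed by -0.149 at 28S-4560. The lack of calls is therefore weak evidence of no change. At 28S-4469 the 5 libraries scored 0.989 to 0.994, and at 28S-4464 they scored 0.986 to 0.993.

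Among libraries without FBL KD, all with a vector lay below all without in both the clones and control KD at 28S-4166, 28S-4541 and 28S-4593 only. The share of all 120 sites where this held in both was not counted, so it marks no trait of this stretch. At some other sites the mean was also lower with a vector in both, but libraries overlapped, as in the clones at 28S-4362 and 28S-4607 and in control KD at 28S-4590. At others the means went opposite ways, as at 28S-4560 (-0.149 in the clones and 0.023 in control KD). Both clone C1 libraries with a vector lay below the 3 clone libraries without one at 8 of the 19 sites, against 40.8% of all 120, and above them at 1, against 3.33%. At 28S-4560 they scored 0.526 with the empty vector and 0.545 with SNORD127, against 0.677 to 0.692 without a vector. At 28S-4588 these values were 0.525 and 0.556, against 0.614 to 0.650, and at 28S-4541 they were 0.901 and 0.888, against 0.958 to 0.961. Control KD libraries with empty vector lay below those without at 9 sites, against 45% of all 120, and above them at 3, against 6.67%. At 28S-4541 they scored 0.934 and 0.952, against 0.984 and 0.996. The 3 sites where they lay above were 28S-4426, 28S-4469 and 28S-4937. At 28S-4426 and 28S-4937 the clones went the other way: at 28S-4937 control KD scored 0.663 and 0.832 with empty vector against 0.575 and 0.625 without, while the clones scored 0.616 and 0.628 with a vector against 0.713 to 0.748 without. In control KD the order was mixed at 28S-4560 and 28S-4588. At 28S-4588 replicate 2 with empty vector scored 0.845, the highest value of that site, and at 28S-4937 that replicate scored 0.832, against 0.575 to 0.748 in the other 18 libraries. Each knockdown comparison was made between libraries with the same vector state.

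**Figure D4:**
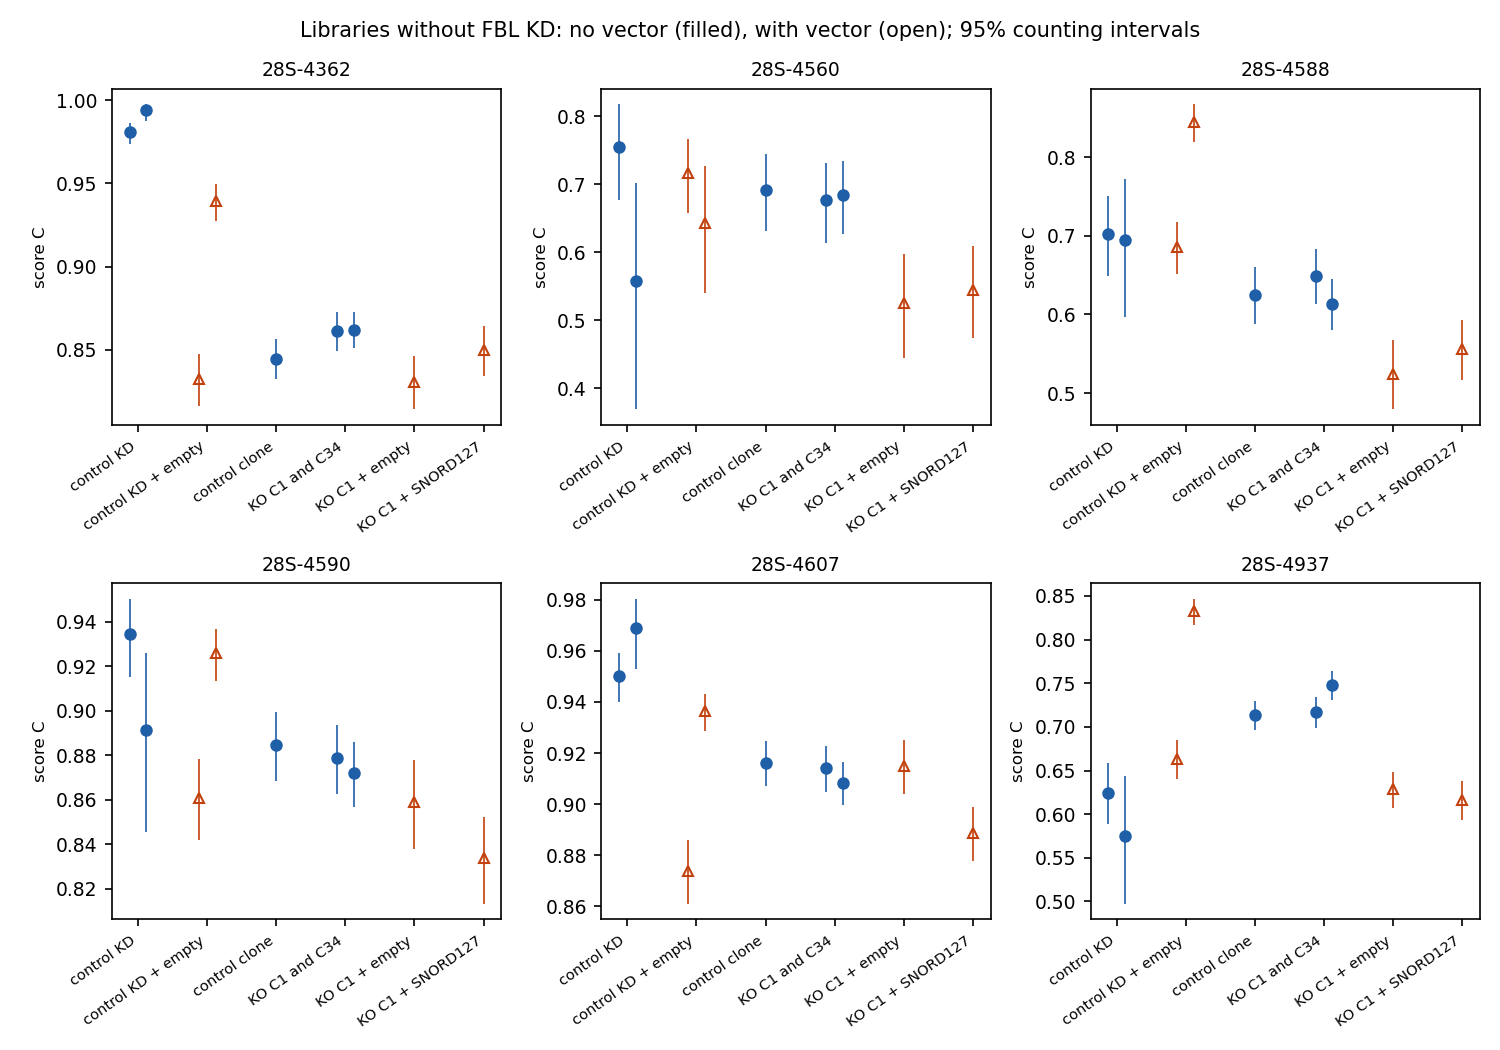
Score C with 95% Poisson counting intervals in the 9 libraries without FBL KD (horizontal axis: groups; each panel has its own vertical scale) at the 6 sites that missed 0.9 in some control KD library, without a vector (filled circles) and with one (open triangles). Both clone C1 libraries with a vector lie below the other clone libraries at 28S-4560, 28S-4588, 28S-4590 and 28S-4937, and replicate 2 of control KD with empty vector is the highest point at 28S-4588 and 28S-4937.

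Sites close together share flanking positions, so that a change at one enters the score of the next. Another listed site lay within 6 nucleotides at 8 of the 19 sites, namely the pair 28S-4197 and 28S-4198, the group 28S-4464, 28S-4468 and 28S-4469, and the group 28S-4588, 28S-4590 and 28S-4593. Of these 8, 6 (75%) fell with FBL KD over both backgrounds, and of the 11 others 6 (54.5%) did, against 71.7% of all 120 sites. Median changes were -0.127 and -0.047, against -0.085 over all 120 sites. Whether neighbours matter for this was not tested. Leaving other listed sites out of the flanks changed none of these 12 calls.

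Some unlisted positions also scored high. By the deposited formula 895 unlisted positions of the stretch were scored, and 60 of them (6.70%) had a median of at least 0.8 over the libraries, as did 15 of the 19 listed sites. With a mean flanking count of at least 100 in every library 374 positions remained, of which 11 scored at least 0.8 in every library. The 8 highest were 4423, 4214, 4424, 4215, 4458, 4995, 4420 and 4425, and several of them lie beside the most counted positions 4415 to 4419. Their mean scores changed with FBL KD by -0.024 to 0.013, without a test. At 4423 the 19 libraries scored 0.953 to 0.985, and at 4214 they scored 0.929 to 0.999, with control and FBL KD values overlapping at both. At 0 of the 11 positions did all 4 FBL KD libraries lie below all 4 control KD libraries, against 0.267% of the 374. The rule of 0.8 in every library includes FBL KD, so a position with a large fall could not enter. With 0.8 asked of the control KD libraries alone, the same 11 positions qualified, so this was no further check. With 0.267% of the 374 as background, 0 of 11 marks no trait of these positions. A high score alone thus occurred at positions without a listed methyl group. With flanks of 2 positions, 7 in place of 11 reached 0.8 in every library.

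**Figure D5:**
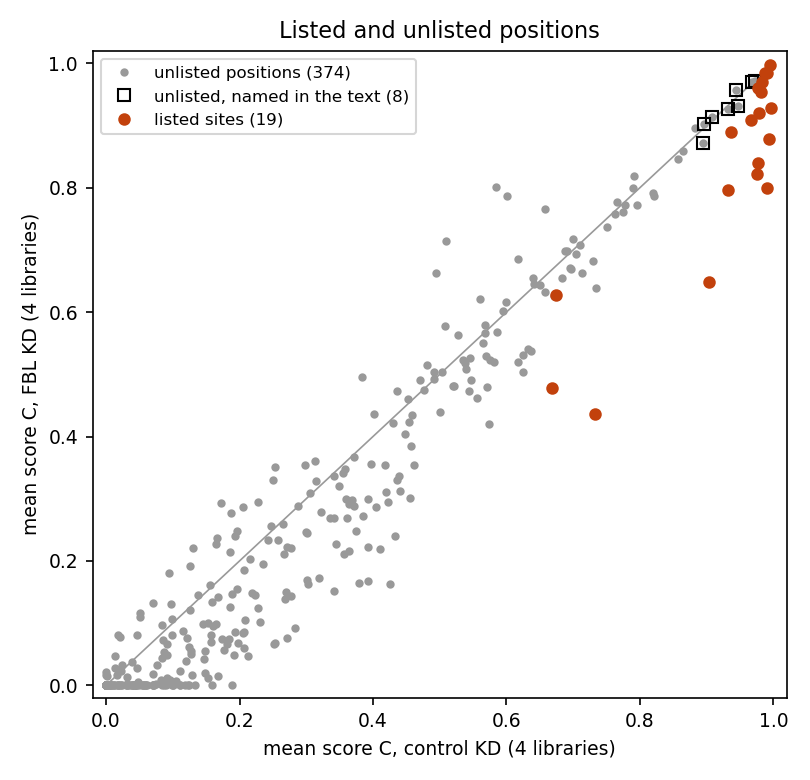
Mean score C over the 4 FBL KD libraries (vertical axis) against the mean over the 4 control KD libraries (horizontal axis) for the 374 unlisted positions with enough counts (grey), with the 8 named positions boxed, and the 19 listed sites (orange). The boxed positions, chosen by their score in every library, FBL KD included, lie near the line of equality, and most listed sites lie below it.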

How the data were processed

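Total RNA of 19 Kasumi-1 libraries was measured by RiboMethSeq. Per the labels' protocols, 100 ng of RNA was broken by 12 min of alkali at 95 °C into pieces near 30 nucleotides. The submitters' processing notes name cutadapt and Bowtie2. Versions and reference sequence: not given in the sources used here. For every rRNA position the authors deposited end counts, in whole numbers without normalization. A second table deposited by the authors holds score C, a fraction from 0 to 1, at 120 sites. Score C is 1 minus the end count read 1 position after the site over the average of 2 weighted means, each over the 6 positions of one side (weights 1 to 0.5), with negative values set to 0; this gave 2280 of 2280 deposited scores within 1e-09. Since it is a ratio within a library, depth mainly sets its precision.

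For each comparison limma 3.58.1 (R 4.3.3) was fitted to score C of all 120 sites, each group having its own coefficient, with eBayes and a trended variance. Tests were two-sided, with adjustment by Benjamini and Hochberg's method across these sites at 0.05. The fit used the 14 knockdown libraries, which pools their spread, or all 19 libraries for SNORD127. The test was tried on simulated end counts with the same spread at every site, for the knockdown with empty vector only. Real replicates did not share 1 spread, so no result here rests on that trial. Counting intervals are exact Poisson intervals (95%) from Python 3.11.15 with scipy 1.17.1. Unlisted positions were scored by the same formula. Host genes were matched by symbol in RefSeq (GRCh38.p14). All 19 sites were named, with values for called sites, unlisted positions only at 0.8 or above in every library with flanks of at least 100 (at most 8), and the 5 most counted positions. The sites, lists and rules were chosen with earlier results of these data known. Alternatives were a logit scale, flanks of 2 positions, other listed sites left out of flanks, unclipped scores, equal library medians (each library shifted so that its median over the 120 sites is the same), no variance trend, the compared groups alone, a replicate block, edgeR 4.0.16 on end counts with the flanking mean as offset, and each replicate left out. Replicate numbers were not taken to pair the libraries. In end counts over the positions of the stretch, no replicate pair agreed within sampling noise. This was not asked of score C.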

Additional observations from a re-analysis of the deposited data

Results flagged for a closer look

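The fall of score C at 28S-4593, the SNORD78 target, was larger in the libraries with empty vector than in those without re-expression. The difference between the 2 knockdown effects was -0.0792 (SE 0.0119, 95% interval -0.106 to -0.0519, limma adjusted p = 0.00221), from 2 libraries in each of 4 groups, and this test of the difference is what drew attention to it. Both FBL KD libraries with empty vector (0.785 and 0.801) lay below both without re-expression (0.884 and 0.889), while the control libraries were within 0.969 to 0.989. Over the alternatives the adjusted p ran from 0.0021 to 1, and the call was lost on the logit scale, with library medians made equal and by edgeR on end counts, where the difference had the opposite sign. Depth and the shFBL numbers of the column names go together with the background and cannot be told apart from it.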

How the results depend on the processing

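Falls with FBL KD at 28S-4198, 28S-4276, 28S-4588, 28S-4590 and 28S-4593 over both backgrounds kept their direction and call under all alternatives run, each replicate left out included. The setting that changed most was making library medians equal. It takes the shift of the median site out of every site, so the smaller changes turn sign by its construction. With it, the counts of the 19 sites called lower and higher were 5 and 10 for the knockdown over both backgrounds, 2 and 9 without re-expression, 5 and 9 with empty vector, and 0 and 6 for the difference of the knockdown effects. They were 9 and 0 for wild-type FBL against empty vector, 1 and 5 for wild-type FBL against the control, 1 and 11 for FBLTri against wild-type FBL, and 1 and 9 for FBLQua against wild-type FBL. Against empty vector 0 sites were lower with FBLTri and 2 higher with FBLQua.

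The sites that turned sign with equal medians, and were called before or after, were as follows. The knockdown over both backgrounds gave 0.112 at 28S-4166, 0.049 at 28S-4197, 0.101 at 28S-4340, 0.0713 at 28S-4362, 0.0596 at 28S-4426, 0.00185 at 28S-4464, 0.115 at 28S-4469, 0.0896 at 28S-4493, 0.106 at 28S-4506 and 0.0602 at 28S-4541. Without re-expression it gave 0.0921 at 28S-4166, 0.0433 at 28S-4197, 0.081 at 28S-4340, 0.0339 at 28S-4426, 0.0972 at 28S-4469, 0.0708 at 28S-4493, 0.0706 at 28S-4506, 0.0344 at 28S-4541 and 0.000901 at 28S-4593. With empty vector it gave 0.132 at 28S-4166, 0.0547 at 28S-4197, 0.121 at 28S-4340, 0.0852 at 28S-4426, 0.133 at 28S-4469, 0.108 at 28S-4493 and 0.086 at 28S-4541. The difference of the knockdown effects gave 0.0358 at 28S-4469. Wild-type FBL against empty vector gave -0.0832 at 28S-4166, -0.0364 at 28S-4197, -0.0858 at 28S-4340, -0.0591 at 28S-4426, -0.0928 at 28S-4469, -0.0809 at 28S-4493, -0.0874 at 28S-4506, -0.0655 at 28S-4541 and -0.00555 at 28S-4607, and against the control 0.0354 at 28S-4340 and 0.0402 at 28S-4469. FBLTri against wild-type FBL gave 0.0804 at 28S-4166, 0.0722 at 28S-4197, 0.0743 at 28S-4340, 0.0642 at 28S-4426, 0.0914 at 28S-4506, 0.0341 at 28S-4541 and 0.0481 at 28S-4593. FBLQua against wild-type FBL gave 0.0991 at 28S-4166, 0.0679 at 28S-4197, 0.0912 at 28S-4340, 0.0674 at 28S-4426, 0.00834 at 28S-4464, 0.0957 at 28S-4493, 0.0829 at 28S-4506, 0.0596 at 28S-4541 and 0.0266 at 28S-4593.

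For the other settings the cause of a change was not tested. With flanks of 2 positions 1 site was called higher in the knockdown over both backgrounds and 1 with empty vector, 2 were called lower in the difference of the knockdown effects, 1 lower and 1 higher with FBLTri against empty vector, and 1 lower with FBLTri against FBLQua, and 7 unlisted positions reached 0.8 in every library. Without setting negative scores to 0, 2 sites were lower in the difference of the effects. On the logit scale 0 sites were lower and 1 higher in that difference, 8 were lower with wild-type FBL against the control, 0 lower and 0 higher with FBLTri and 0 higher with FBLQua against empty vector, and 4 lower with FBLTri against wild-type FBL. By edgeR that difference turned sign at 28S-4593, to 0.239 on the log2 scale of end counts with the sign of score C (adjusted p = 0.697). By edgeR the corresponding counts were 0 lower in the difference, 9 lower against the control, 0 and 0 with FBLTri and 0 higher with FBLQua. Fitting the compared groups alone gave 6 sites higher with wild-type FBL and 0 higher with FBLQua against empty vector, and 1 higher with FBLTri against FBLQua. With no variance trend 1 site was lower with FBLTri against empty vector.

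Same-numbered libraries were checked for pairing in 21 pairs of groups. Their deviations correlated at -0.226 to 0.694, above 0.1 in 12 and not in the other 9. Since this was not so in every pair, and the labels name no shared batch, the libraries were taken to share only a number; whether some of them share a batch cannot be told from this. With a replicate block 28S-4362 was called lower with empty vector (-0.072), 1 site was lower and 1 higher with FBLTri against empty vector, and no other count moved by over 1.5 times. Without each replicate in turn the counts were 1 to 3 lower and 0 to 1 higher in the difference of the effects, 5 to 8 higher with wild-type FBL against empty vector, 1 to 5 lower against the control, 0 lower and 1 to 2 higher with FBLTri and 0 to 2 higher with FBLQua against empty vector, and 3 to 7 lower with FBLQua against wild-type FBL. In the 4 libraries without re-expression, counting intervals were wide at 28S-4560 and 28S-4588. Replicates at 28S-4588 also differed at depth, from 0.685 to 0.845 in control KD with empty vector at flanking means of 1077 to 1138. What sets this spread was not tested.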
